A study of Sparus aurata with 9 samples.

Results

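Small RNA from primary cultures of fast skeletal muscle cells of gilthead sea bream (*Sparus aurata*) was sequenced after treatment with insulin-like growth factor 1 (IGF1) and after amino acid restriction alone (CTR). The comparison covered all 862 entries of the miRNA table in 6 of the 9 libraries of the series, 3 of IGF1 and 3 of CTR. IGF1 cells went 12 h without amino acids and then had 24 h of IGF1, still without amino acids, whereas CTR cells spent the whole 36 h without amino acids. Restriction began on day 8 of culture in both. IGF1 was added to the CTR medium together with bovine serum albumin, its carrier protein, so that the growth factor and its carrier cannot be told apart. The other 3 libraries (AA) had 12 h without and then 24 h with amino acids in another medium, and served to estimate the spread and as a second reference for IGF1. The study describes 3 independent cultures, started from the muscle of fingerlings and holding both dividing cells and cells that had begun to fuse. The labels do not say which libraries share a culture, so p-values measure the spread between libraries. In such bulk samples fewer cells of a type and less RNA per cell cannot be told apart.

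A miRNA is cut from a hairpin precursor as a duplex of a 5p and a 3p arm. One arm, the guide, usually accumulates and pairs with target mRNAs through its seed, bases 2 to 8, while the other arm, the passenger, is usually degraded. IGF1 acts through its receptor, PI3K, AKT and mTOR to raise protein synthesis and myoblast growth, and FOXO factors oppose this route. The myomiRs miR-1, miR-133, miR-206 and miR-499 are enriched in muscle and accompany myoblast differentiation.

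The table lists mature sequences, 567 of them entries with a miRBase name and 295 predicted candidates whose names start with PC. The sequences of the entries described most closely are given 5′ to 3′ as deposited, with T for U and the seed in capitals. The first set holds guides, passenger arms and a length variant of the muscle miRNAs. The guides of miR-1 and miR-206 share 1 seed, which their 5p arms do not carry.
miR-1: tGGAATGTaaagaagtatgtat
miR-206: tGGAATGTaaggaagtgtgtgg
miR-206-3p, 24 nt variant: tGGAATGTaaggaagtgtgtggca
miR-1-5p: aCATACTTctttatgtacccat
miR-133a-2-5p: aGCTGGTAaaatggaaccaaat
miR-133b-5p: gCTGGTCAaacggaaccaagtc

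The second set holds other entries whose IGF1 libraries all lay above the CTR libraries, and miR-338, whose groups overlapped. miR-338 is the more abundant 21 nt form of the 23 nt miR-338-3p, with the same seed.
mir-217-p3: cAACAGTAcctgatgcattgcc
miR-338-3p: tCCAGCATcagtgattttgttgc
miR-338: tCCAGCATcagtgattttgtt
miR-34: tGGCAGTGtcttagctggttgt
miR-15c-5p: tAGCAGCAcatcatgttttgca
miR-19a-5p: gCTAGTTTtgcatagttgcact
mir-19b-1-p5: aGTTTTGCtggtttgcattcagc

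The third set holds entries whose IGF1 libraries all lay below the CTR libraries, and miR-135c, which separated only when libraries were paired. The passenger arms of both miR-128 genes share 1 seed. The miR-203a entries are the same mature RNA with starts 1 base apart, which gives them different seeds.
mir-128-2-p5: gGGGGCCGttacactgtcagaga
mir-128-1-p5: cGGGGCCGggacgctgtctgaga
miR-122: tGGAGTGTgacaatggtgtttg
miR-203a: gTGAAATGtttaggaccacttg
miR-203a-3p: tGAAATGTttaggaccacttga
miR-92a-3p, rare variant: tATTGCACttgtcccggcctgca
miR-31: aGGCAAGAtgttggcatagctgt
miR-135c: tATGGCTTtttattcctatgtga

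Depth, inferred from the value of 1 read in each library, was between 7241680 and 9534837 reads in IGF1 and between 7045311 and 8010697 reads in CTR. Between 134 and 159 entries were at 0 in IGF1 libraries, against between 156 and 191 in CTR libraries. CTR replicate 1 stood apart: it was the farthest from the median of its group in 344 of the 594 entries tested, and its median distance from the other CTR libraries was 0.523 on the log2 scale, against 0.362 for CTR replicate 2 and 0.272 for CTR replicate 3. The spread was smaller in IGF1, with a mean SD per entry of 0.384 on the log2 scale, than in CTR, with 0.540. The muscle identity of the cells was visible in both groups. The skeletal muscle markers miR-1, miR-133 and miR-206 summed to between 491294 and 632552 normalized reads in IGF1 and between 495065 and 695023 in CTR.

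An entry was tested where 3 or more of the 9 libraries reached 10 normalized reads, which held for 594. These were compared in limma on the log2(normalized reads + 1) scale, which understates the change of low entries, with p-values adjusted over all of them. At an adjusted p of 0.05 no entry passed (0%), and the smallest adjusted p was 0.114. Without adjustment, 61 entries (10.3%) had a p under 0.05, 35 of them (5.89%) higher in IGF1 and 26 (4.38%) lower. The difference was above 0 in 325 entries (54.7%) and below 0 in 269 (45.3%), with a median of 0.06. All 3 IGF1 libraries lay above all 3 CTR libraries in 33 entries (5.56%) and below them in 46 entries (7.74%). IGF1 and CTR libraries of equal replicate number deviated together, so a fit with the replicate number as a block over all 9 libraries was also made. In it 2 entries passed (0.337%): miR-1-5p and miR-135c, both higher in IGF1. This fit also matched the AA libraries by number, for which joint deviations are not given here. Neither passed with the block over the IGF1 and CTR libraries alone (adjusted p = 0.112 for each). In the plot of differences by abundance, the most abundant entries lie close to 0.

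**Figure D1:**
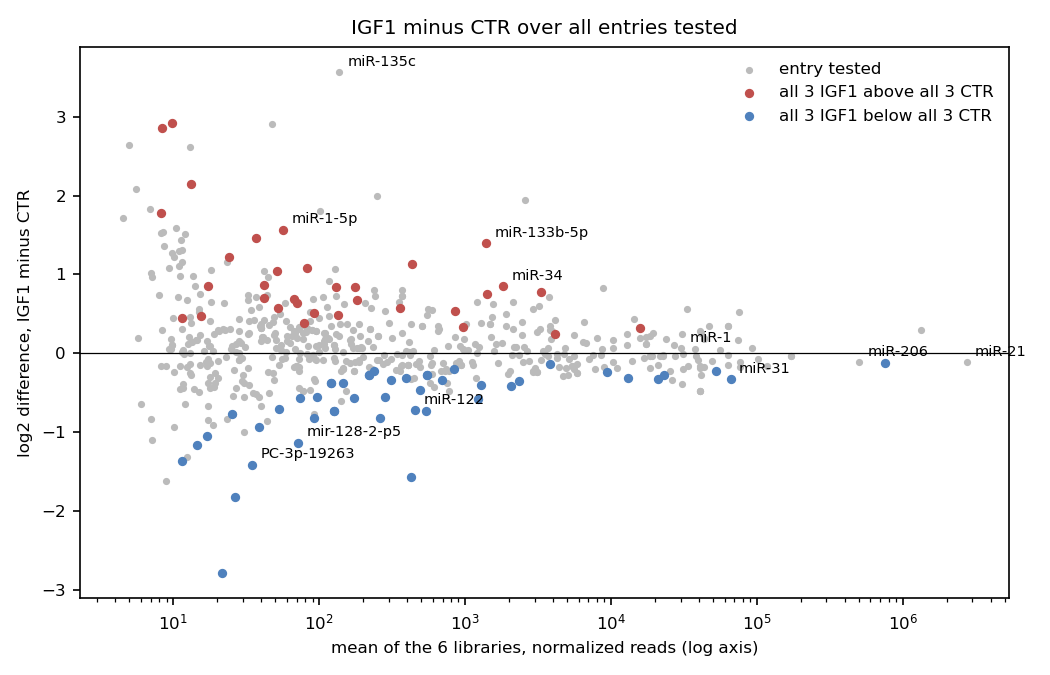
Each point is 1 of the 594 entries tested, placed by its mean over the IGF1 and CTR libraries in normalized reads (log axis) and by its log2 difference, IGF1 minus CTR. Red and blue points are the 33 and 46 entries whose 3 IGF1 libraries all lay above or below the 3 CTR libraries, and the abundant miR-21 and miR-206 sit close to 0.

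The most abundant miRNAs differed little. miR-21 averaged 2641786 ± 201453 normalized reads in IGF1 and 2846693 ± 43968 in CTR (SD, n = 3 each), a log2 difference of -0.11 with a 95% interval from -0.29 to 0.07. miR-146, a miRNA of innate immune signalling, had 0.29 (-0.12 to 0.71), miR-22b had -0.12 (-0.32 to 0.07) and miR-199-5p had -0.03 (-0.30 to 0.24). The IGF1 libraries of miR-22b all lay below its CTR libraries, as in 7.74% of all entries tested. They held between 701820 and 736772 normalized reads, against between 747528 and 801852 in CTR. miR-206 averaged 478621 ± 63629 normalized reads in IGF1 and 521497 ± 98421 in CTR, a log2 difference of -0.11 (-0.47 to 0.24). Among the 100 most abundant sequences, 97 differed by less than 0.5 on the log2 scale in either direction, and the range was from -0.48 to 0.83.

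miR-1-5p, the passenger arm of the muscle miRNA miR-1, was higher in IGF1 and passed the test with the replicate block over all 9 libraries, but not with the block over the 6 IGF1 and CTR libraries alone (limma adjusted p = 0.112). It had 67.6, 79.0 and 106 normalized reads in IGF1 replicates 1 to 3, against 19.3, 25.4 and 41.0 in CTR replicates 1 to 3. AA replicates 1 to 3, which enter the block over all 9 libraries, had 130, 188 and 209, so values rose with replicate number in every group. The groups did not overlap, and the lowest IGF1 library was above the highest CTR library. The mean was 84.0 ± 19.5 in IGF1 and 28.6 ± 11.2 in CTR (SD, n = 3 each), and the log2 difference of 1.57 (SE 0.31) had an adjusted p of 0.114 in limma without the block and passed with it (SE 0.20, adjusted p = 0.0126). The lowest of these values corresponded to 16 reads. Its guide, miR-1, had 29569, 36107 and 27349 normalized reads in IGF1, against 28884, 29022 and 30736 in CTR. These guide values overlapped, with a log2 difference of 0.06 and a 95% interval from -0.24 to 0.36.

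Passenger arms of miR-133 were also higher in IGF1, without passing the test. In vertebrates miR-133a is transcribed together with miR-1, and miR-133b with miR-206. miR-133a-2-5p had 4907, 3749 and 3918 normalized reads in IGF1, against 3056, 2180 and 2152 in CTR. The groups did not overlap, and the log2 difference was 0.78 (SE 0.20, limma adjusted p = 0.272). miR-133b-5p had 2805, 2470 and 914 normalized reads in IGF1, against 683, 585 and 874 in CTR, so that IGF1 replicate 3 was barely above the highest CTR library. Its log2 difference was 1.39 (SE 0.40, adjusted p = 0.285). The guide shared by miR-133a and miR-133b overlapped between groups, with 55429, 76549 and 83062 normalized reads in IGF1 and 50288, 56034 and 60779 in CTR, and differed by 0.35 (95% interval from -0.02 to 0.72).

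The remaining muscle miRNAs gave smaller values. miR-206-5p differed by 0.38 (SE 0.23) with overlapping groups, and miR-499, encoded within a myosin gene, by 0.23 (-0.31 to 0.78). Within miR-206 the groups of a 24 nt length variant did not overlap. It was not tested against the main form, and a 23 nt variant had -0.09 against -0.11 for the main form. The 24 nt variant had 486, 382 and 348 normalized reads in IGF1, against 745, 701 and 563 in CTR, a log2 difference of -0.73 (SE 0.27, limma adjusted p = 0.373). It extends the main form by 2 bases at the 3′ end and was far rarer, averaging 537 normalized reads over both groups against 500059 for the main form. Of the 8 myomiR guide sequences tested, 5 had a difference above 0 and 3 below, with a median of 0.05 against 0.06 over all 565 sequences tested.

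**Figure D2:**
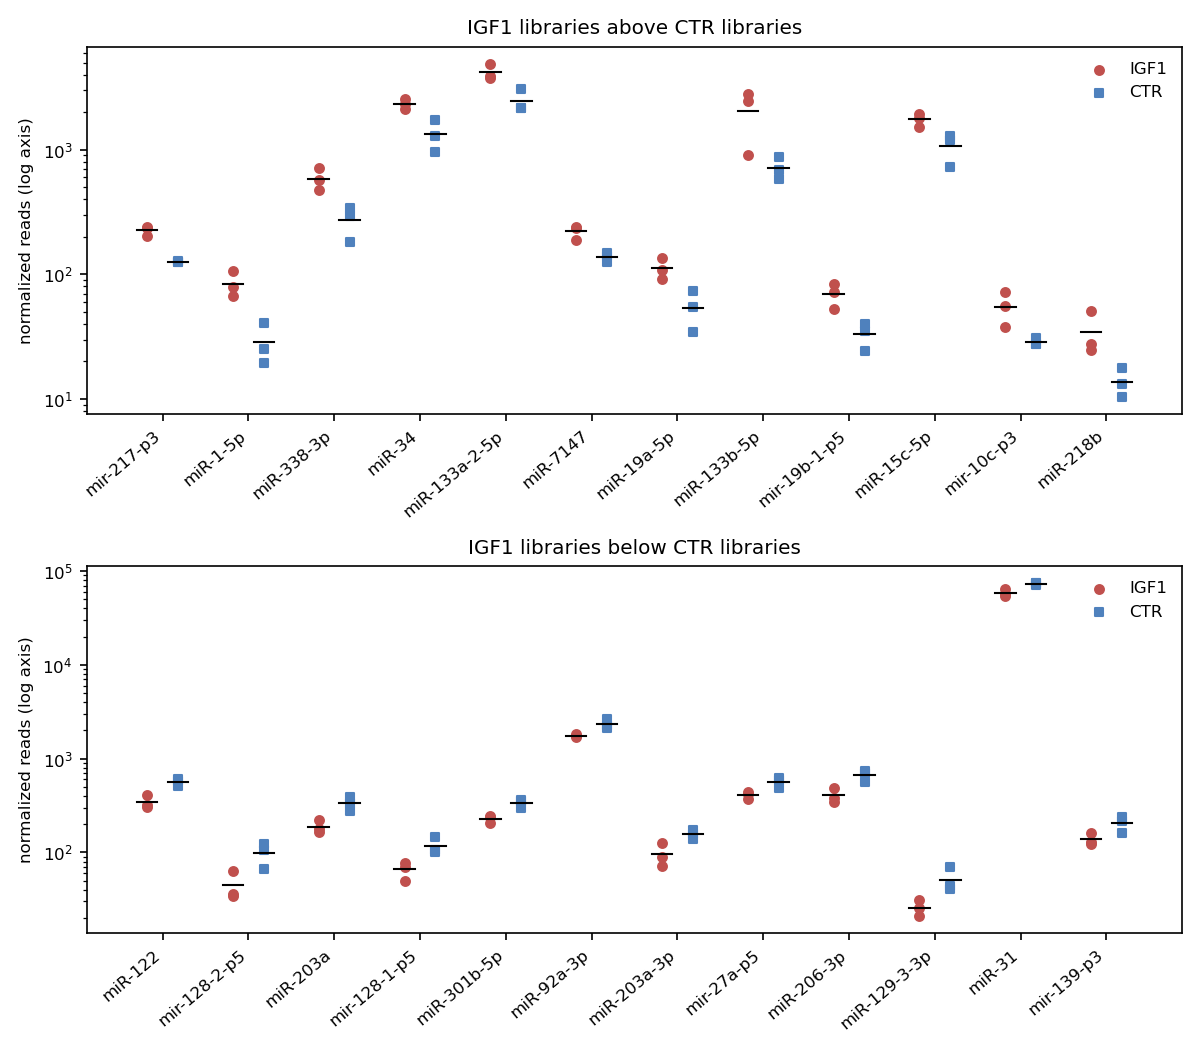
Normalized reads per library (log axis) for the 12 named entries with the smallest p among those whose IGF1 libraries (red circles, left) all lay above the CTR libraries (blue squares, right), and below for the 12 whose IGF1 libraries all lay below. Short black lines are group means of 3 libraries, and miR-133b-5p shows 1 IGF1 library close to the CTR values.

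Outside the muscle miRNAs, the entry with the smallest p among those higher in IGF1 was mir-217-p3, the rarer arm of miR-217. It had 239, 237 and 204 normalized reads in IGF1, against 129, 125 and 125 in CTR, with a log2 difference of 0.83 (SE 0.17, limma adjusted p = 0.114). The CTR libraries lay within a few reads of each other, and the guide miR-217 differed by -0.04. miR-34, a target of p53 in mammals that restrains the cell cycle, had 2560, 2313 and 2131 normalized reads in IGF1, against 1723, 964 and 1297 in CTR. All IGF1 libraries were higher, with a log2 difference of 0.85 (SE 0.21, adjusted p = 0.271). With 1 library left out, the difference of miR-34 ran between 0.64 and 1.06. Among these fits it passed only without CTR replicate 1 (limma adjusted p = 0.0411), the CTR library closest to IGF1. Its limma adjusted p reached 0.606 across all alternatives.

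miR-338-3p had 570, 717 and 475 normalized reads in IGF1, against 292, 181 and 343 in CTR, a log2 difference of 1.14 (SE 0.28, limma adjusted p = 0.271). The shorter and more abundant miR-338 had 0.31 (-0.04 to 0.66), with overlapping groups. miR-15c-5p, of the miR-15 and miR-16 seed family that in mammals represses cyclins, had 1534, 1796 and 1938 normalized reads in IGF1, against 729, 1187 and 1288 in CTR. Its log2 difference was 0.75 (SE 0.22, adjusted p = 0.285). Other entries of this seed did not share the pattern, since miR-15a had 0.11 and the most abundant miR-16b had -0.27, both with overlapping groups.

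miR-19a-5p and mir-19b-1-p5, passenger arms from the growth-promoting cluster of miR-17 to miR-92, were higher in IGF1 without passing the test. Other passenger arms of miR-19 were tested (mir-19a-p5, miR-19c-4-5p and miR-19d-5p) and were not among the 12 leading higher entries. Their values are not given here, so the named arms do not stand for all passenger arms of miR-19. miR-19a-5p had 135, 108 and 91.6 normalized reads in IGF1, against 54.3, 34.6 and 73.1 in CTR, a log2 difference of 1.08 (SE 0.29, limma adjusted p = 0.272). mir-19b-1-p5 had 72.0, 52.3 and 83.5 in IGF1, against 39.9, 24.2 and 35.4 in CTR, a log2 difference of 1.04 (SE 0.30, adjusted p = 0.285). Neither pair of groups overlapped, which was a condition for naming them. Among the guides of this cluster, a rare variant of miR-92a-3p lay lower, with 1697, 1816 and 1729 normalized reads in IGF1 against 2128, 2624 and 2293 in CTR (log2 difference -0.42, SE 0.14, adjusted p = 0.367). This variant averaged 2048 normalized reads over both groups, whereas the main form miR-92a averaged 116486 and differed by -0.16 with overlapping groups. Over the 17 cluster guides tested, 12 differences were above 0 and 5 below, with a median of 0.21. In 2 of the 17 the IGF1 libraries all lay above the CTR libraries and in 2 all below, against 33 (5.84%) above and 42 (7.43%) below of all 565 sequences tested.

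The rest of the 12 leading higher entries were miR-7147, mir-10c-p3 and miR-218b. miR-7147 averaged 222 ± 29.7 normalized reads in IGF1 and 138 ± 11.6 in CTR, a log2 difference of 0.67. mir-10c-p3 averaged 55.0 ± 17.1 in IGF1 and 28.9 ± 1.97 in CTR, a log2 difference of 0.86. miR-218b averaged 34.4 ± 14.2 in IGF1 and 13.8 ± 3.69 in CTR, a log2 difference of 1.22 (SD, n = 3 each). Their adjusted p ran between 0.272 and 0.367 in limma.

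Among entries lower in IGF1, miR-122, the dominant miRNA of vertebrate liver, had the smallest p of those with a miRBase name. It had 302, 321 and 412 normalized reads in IGF1, against 601, 584 and 508 in CTR, a log2 difference of -0.72 (SE 0.18, limma adjusted p = 0.271). miR-203a, a miRNA of skin epithelium in mammals, had 167, 177 and 219 in IGF1, against 334, 389 and 276 in CTR (-0.82, SE 0.23, adjusted p = 0.285). Its form with the start shifted by 1 base, also listed as miR-203b-3p, had 90.0, 71.8 and 126 in IGF1, against 141, 172 and 157 in CTR (-0.73, SE 0.25). Neither miRNA overlapped between groups.

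These entries belong to lists of markers of other cell types. The epithelial guides summed to between 356 and 553 normalized reads in IGF1 and between 576 and 694 in CTR, with 3 of 4 tested sequences below 0. Without both miR-203a forms this sum overlapped, at between 107 and 208 in IGF1 and between 133 and 150 in CTR. The liver and gut guides summed to between 947 and 1091 in IGF1 and between 1133 and 1253 in CTR. Without miR-122 their sum was between 621 and 789 in IGF1 and between 549 and 652 in CTR, with all 4 remaining tested sequences above 0. The lower sums in IGF1 thus rested on miR-203a and miR-122 themselves. The sums of the other lists overlapped: blood and immune guides summed to between 6698 and 7144 in IGF1 and between 6069 and 7626 in CTR, neural guides to between 406 and 499 in IGF1 and between 367 and 420 in CTR, and endothelial guides to between 92943 and 100940 in IGF1 and between 85970 and 108520 in CTR. Fibroblast and smooth muscle guides summed to between 310202 and 345333 in IGF1 and between 310537 and 323477 in CTR, and pancreatic and sensory guides to between 364 and 707 in IGF1 and between 348 and 569 in CTR.

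The passenger arms of both miR-128 genes were lower in IGF1. mir-128-2-p5 had 34.2, 35.9 and 63.8 normalized reads in IGF1, against 66.4, 123 and 105 in CTR, a log2 difference of -1.13 (SE 0.31, limma adjusted p = 0.272). mir-128-1-p5 had 49.1, 70.8 and 77.7 in IGF1, against 105, 145 and 101 in CTR (-0.83, SE 0.25, adjusted p = 0.328). Neither overlapped, although IGF1 replicate 3 came close to CTR replicate 1 in mir-128-2-p5. The guide miR-128-3p, known in mammals to repress the insulin receptor substrate IRS1, had 7919, 11043 and 10828 in IGF1, against 10661, 12145 and 9149 in CTR, and differed by -0.11 (-0.56 to 0.35).

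The most abundant of the leading lower entries was miR-31, which in mouse satellite cells holds back translation of Myf5. It had 56595, 54883 and 64579 normalized reads in IGF1, against 71234, 74065 and 74868 in CTR, a log2 difference of -0.33 (SE 0.12, limma adjusted p = 0.373). The groups did not overlap, yet the difference was smaller than that of any other leading entry. The other leading lower entries were miR-301b-5p with a log2 difference of -0.56, mir-139-p3 with -0.56, mir-27a-p5 with -0.47 and miR-129-3-3p with -0.94, with adjusted p between 0.367 and 0.373.

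miR-135c was higher in IGF1 within each replicate number, while the groups overlapped. It had 21.9, 28.7 and 724 normalized reads in IGF1 replicates 1 to 3, against 0, 6.92 and 36.6 in CTR replicates 1 to 3. Replicate 3 was the highest in both groups, and also in AA, with 18.5, 19.1 and 234 normalized reads in AA replicates 1 to 3. The log2 difference was 3.57 with an SE of 1.62 in limma without the block (adjusted p = 0.468) and an SE of 0.55 with it, where it passed (adjusted p = 0.0256), but not with the block over the 6 libraries (adjusted p = 0.112). The size rested on single libraries, since the difference without the block was 1.97 without IGF1 replicate 3, 2.20 without CTR replicate 1 and 4.81 without CTR replicate 3. CTR replicate 1 was at 0, where up to 3.62 normalized reads, or 3 reads, remain possible for counting error alone, so this value depends on the added 1. miR-34c had the same layout, with 58.8, 89.2 and 1190 normalized reads in IGF1 against 24.2, 41.5 and 94.2 in CTR, and was looked up after the values of miR-135c were seen (log2 difference 1.99, SE 1.16, adjusted p = 0.568).

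**Figure D3:**
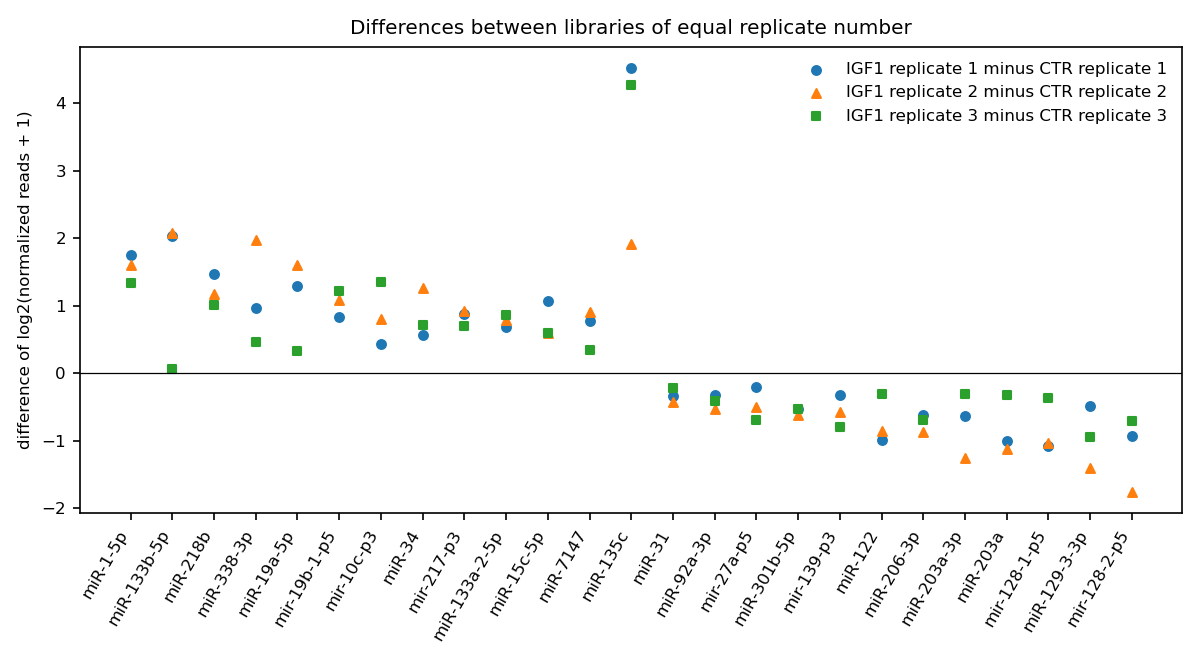
Differences of log2(normalized reads + 1) between the IGF1 and the CTR library of the same replicate number, for the 24 leading entries and miR-135c. The leading entries were chosen for groups without overlap, so their markers lie on 1 side of 0 by selection. Each marker is 1 pair of libraries: in miR-135c all 3 lie above 0 and replicate 2 is the lowest, while in miR-133b-5p the pair of replicate 3 is close to 0.

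Of 195 sequences tested from arms other than the guide, 15 had all IGF1 libraries above all CTR libraries and 17 all below. Of 257 guide sequences tested these were 15 and 16. Because some leading entries were rare arms, the ratio of the less to the more abundant arm was compared within each library. It covered 103 miRNAs with both arms measured, with 1 entry taken for each arm. This ratio does not depend on scaling between libraries. No pair passed in limma without the block (0%), with 19 (18.4%) at an unadjusted p under 0.05, and 19 (18.4%) did not overlap between groups. With the block 1 pair passed (0.971%), that of miR-1. The 5p arm made up 0.228%, 0.218% and 0.384% of both miR-1 arms in IGF1, against 0.0668%, 0.0874% and 0.133% in CTR. The log2 ratio of arms was higher in IGF1 by 1.51 (SE 0.32, adjusted p = 0.0990 without the block, and SE 0.21, adjusted p = 0.0119 with it). The block over the IGF1 and CTR libraries alone was not run for arm ratios. Since the guide differed by only 0.06, this ratio largely repeats the values of miR-1-5p and is not a separate result.

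Further arm ratios did not overlap between groups but did not pass. Those of miR-217 and miR-128 largely repeat mir-217-p3 and mir-128-2-p5, whose guides differed by -0.04 and -0.11, and are not separate results. Both of these arms, and mir-27a-p5 of miR-27a, were leading entries, named because their groups did not overlap. The rarer arm of miR-217 made up 1.40%, 1.33% and 0.907% of both arms in IGF1, against 0.753%, 0.568% and 0.647% in CTR (log2 ratio higher by 0.87, SE 0.22, limma adjusted p = 0.131). For miR-128 the ratio took mir-128-2-p5 over miR-128-3p and left out mir-128-1-p5, the passenger arm of the other gene. mir-128-1-p5 averaged 65.9 normalized reads in IGF1 and 117 in CTR, against 44.6 and 98.4 for mir-128-2-p5. The ratio was lower in IGF1 (log2 difference -1.03, SE 0.28, limma adjusted p = 0.135). mir-128-2-p5 made up 0.430%, 0.324% and 0.586% of its sum with miR-128-3p in IGF1, against 0.619%, 1.01% and 1.14% in CTR. In miR-27a the rarer arm made up 9.17%, 11.9% and 10.98% in IGF1, against 12.4%, 27.1% and 21.7% in CTR (-1.03, SE 0.36, adjusted p = 0.230). Of the 19 pairs with an unadjusted p under 0.05, 10 had a ratio higher in IGF1 (9.71% of all pairs) and 9 a lower one (8.74%), shown in the plot of both arms. The pairs of miR-133a and miR-133b were not among them.

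**Figure D4:**
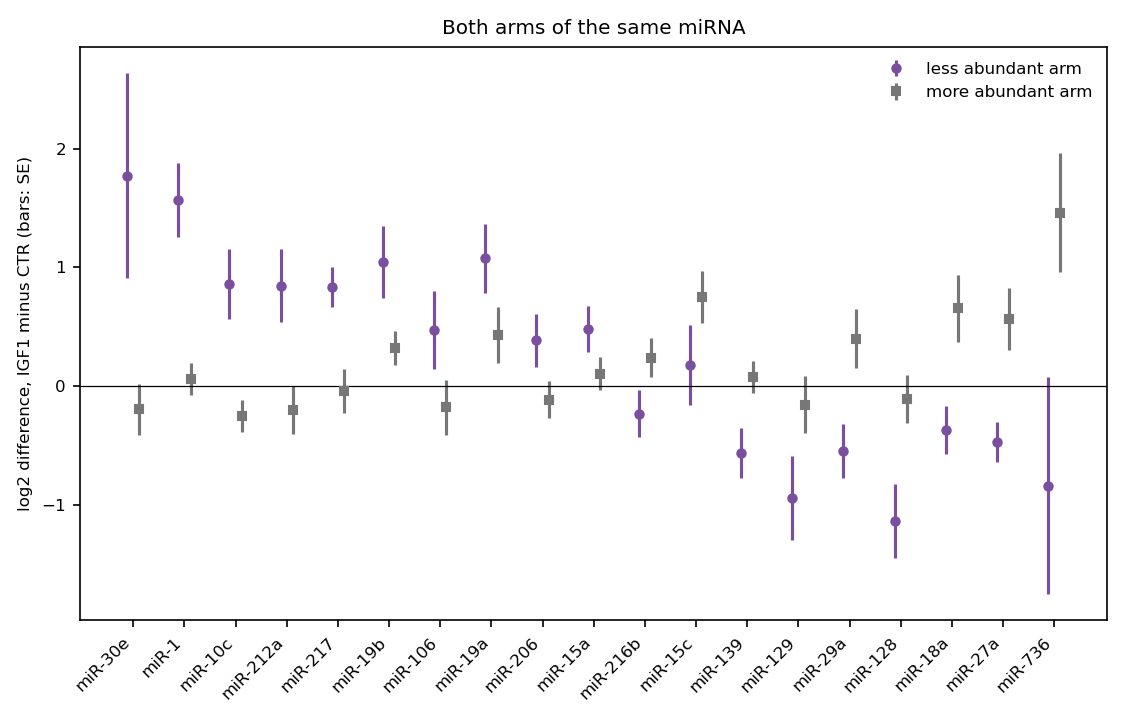
Log2 difference, IGF1 minus CTR, of the less abundant arm (purple circles) and the more abundant arm (grey squares) of the 19 miRNAs whose arm ratio had an unadjusted p under 0.05. Bars are standard errors from limma. miR-1 has its 5p arm at 1.57 and its guide at 0.06. miR-128 is shown by mir-128-2-p5 at -1.13, without mir-128-1-p5, and by its guide at -0.11.

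Guide arms were then read by the role of their known targets in mammals. Length variants of the same miRNA count as separate sequences in these lists, so the members of a list are not independent. Over all 257 guide sequences tested the median log2 difference was 0.04, with 136 above 0, and the groups did not overlap in 15 above and 16 below. Among guides that repress IGF ligands or their receptors, such as let-7, miR-1, miR-122 and miR-125, 24 of 34 tested sequences were below 0. Their median log2 difference was -0.14, against 0.06 over all sequences tested, passenger arms and candidates included. In 4 of the 34 all IGF1 libraries lay below all CTR libraries and in 0 above, against 42 (7.43%) and 33 (5.84%) of all 565 sequences tested. These were miR-122, the 24 nt miR-206 variant, miR-125a with -0.27 and miR-29b-1-5p with -0.32. Both miR-29 sequences in the list are of the 5p arm, as is the most abundant miR-29 entry, and do not carry the seed of the 3p arm known for these targets. Without them 22 of 32 sequences were below 0, with a median of -0.12. The 34 sequences came from 10 miRNA families, and 16 of them were of the let-7 family, a brake on growth factor signalling. Of these 16, 13 were below 0 with a median of -0.16, and the most abundant member let-7e had -0.02 (-0.36 to 0.32). All 4 tested miR-125 sequences were below 0, with a median of -0.41. They were miR-125b with -0.39, miR-125a with -0.27 and a rare length variant of each, averaging 11.6 and 30.3 normalized reads over both groups. No sequence of these lists passed the test.

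Guides of the signalling route itself were read in the same way, and none passed the test. Those that repress insulin receptor substrates or PI3K had a median of -0.11 over 11 tested sequences, 4 of them above 0 and 7 below, and of -0.07 over 9 without the miR-29 5p arms. Those that repress mTOR had a median of -0.10 over 6, 1 of them above 0 and 5 below, and of -0.11 over 5 without miR-199-5p, whose 3p arm is the one known for mTOR. The IGF1 libraries all lay below the CTR libraries in 2 of the 11 (1 of the 9 without the miR-29 5p arms) and in 1 of the 6, and above them in 0 of either list. Over all 565 sequences tested these shares were 7.43% below and 5.84% above. Guides that repress FOXO factors or muscle ubiquitin ligases had a median of 0.25 over 17 tested sequences, 11 of them above 0. These 17 came from 5 miRNA families and included several forms of miR-27, so they are not independent. In 1 of the 17, miR-27e with a log2 difference of 0.25, the IGF1 libraries all lay above the CTR libraries, and in 0 all below. The most abundant of the FOXO guides, miR-27c, had 119592, 73771 and 64095 normalized reads in IGF1, against 106515, 37389 and 48374 in CTR. IGF1 was higher within each number while the groups overlapped, and the log2 difference was 0.52 (-0.33 to 1.37). The guides tied to myoblast differentiation had a median of 0.02 over 32 tested sequences (0.11 over 30 without the miR-29 5p arms), and those tied to proliferation 0.15 over 26.

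Individual guides in these lists gave the following values. miR-181a-5p, which in mice favours differentiation by lowering Hox-A11, averaged 34434 ± 10267 normalized reads in IGF1 and 46603 ± 1791 in CTR (SD, n = 3 each), a log2 difference of -0.48 (-0.89 to -0.06). IGF1 replicate 3, at 45904, was inside the CTR range, and the adjusted p of miR-181a-5p was 0.373 in limma. Of the 3 tested miR-181 guide sequences, 1 was above 0 and 2 below, with a median of -0.04. miR-221, which in mammals represses the cell cycle inhibitor p27, had -0.23 (-0.55 to 0.09). Its groups did not overlap, with between 44800 and 51602 normalized reads in IGF1 against between 52117 and 59354 in CTR (limma adjusted p = 0.607). All 4 tested sequences of miR-221 and miR-222, a length variant of each among them, were below 0.

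**Figure D5:**
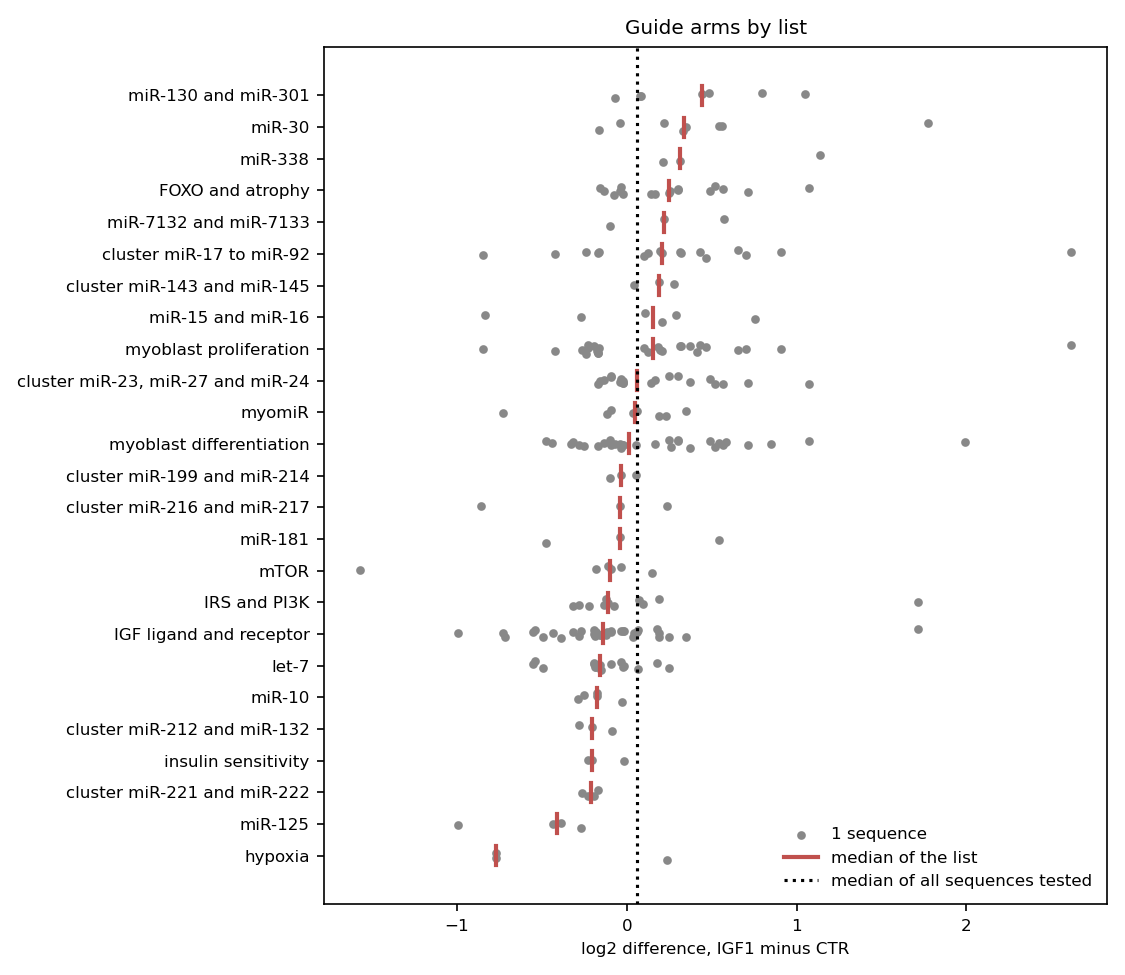
Log2 difference, IGF1 minus CTR, of each tested guide sequence (grey points) in lists of miRNAs grouped by known targets, family or genomic cluster, with the median of each list in red and the median of all sequences tested, 0.06, as a dotted line. The miR-125 list has a median of -0.41 and the FOXO and atrophy list one of 0.25. Length variants of the same miRNA are separate points.

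The predicted candidates were rare, holding between 0.129% and 0.137% of normalized reads in IGF1 and between 0.149% and 0.155% in CTR. PC-3p-19263 had the smallest p of all entries tested, with 14.0, 19.5 and 22.04 normalized reads in IGF1, against 65.2, 46.1 and 42.1 in CTR. The groups did not overlap, with a log2 difference of -1.41 (SE 0.28, limma adjusted p = 0.114). PC-5p-21316 differed by -2.79 (SE 0.96) and PC-5p-34233 by -1.37 (SE 0.49), while PC-5p-20310 had 2.85 (SE 0.87), PC-5p-29915 had 2.92 (SE 0.98) and PC-3p-4390 had 0.69 (SE 0.27). PC-5p-20310, PC-5p-29915 and PC-5p-21316 were at 0 in at least 1 library, so that their differences depend on the added 1.

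Set directly against AA, IGF1 cells differed in 5 entries (0.842%), all lower in IGF1. The guide miR-1 had 29569, 36107 and 27349 normalized reads in IGF1, against 52799, 63283 and 56657 in AA, and fell by 0.90 on the log2 scale (SE 0.13, limma adjusted p = 0.0168). miR-133a-2-5p averaged 4191 ± 625 normalized reads in IGF1 and 9186 ± 1744 in AA (log2 difference -1.12, SE 0.20, adjusted p = 0.0310). mir-128-2-p5 averaged 44.6 ± 16.6 in IGF1 and 168 ± 28.8 in AA (-1.93, SE 0.31, adjusted p = 0.0212; SD, n = 3 each). The others were miR-181b-3p with -1.76 and miR-145-3p with -0.94. With the block 10 entries passed (1.68%), among them miR-1-5p with -1.05 (adjusted p = 0.0288). Both comparisons share the IGF1 libraries.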

How the data were processed

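RNA was sequenced as single-end reads, and the authors trimmed them with scripts of their own and assigned sequences by BLAST to miRBase precursors. The deposited table gives normalized reads, a signal per entry and library. The formula is not given in the sources used here, and between 79.3% and 83.1% of values under 150 were whole reads within 0.02 reads, so count models were not run. The deposited p-value column (an ANOVA over the 3 groups) and the authors' group means were not used. Groups came from sample titles.

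Values were fitted as log2(normalized reads + 1) in limma 3.58.1 (R 4.3.3) over all 9 libraries, with an intensity trend and two-sided p-values adjusted by Benjamini-Hochberg over 594 entries. Python 3.11.15 and pandas 2.3.3 were used to read the table. Same-number libraries of IGF1 and CTR had deviations correlated between 0.301 and 0.401 and other pairs between -0.322 and -0.0422 over 594 entries. Deviations from a group mean cancel within the group, so positive same-number values force the other pairs to be negative on average. The 2 ranges are therefore 1 observation. Because of the same-number values, the block is given where it changes a call. Data were simulated with 200 changed entries among 862, and with 1 spread per entry for all groups. Among changed entries that passed the filter, the IGF1 against CTR test recovered 25.7% of 1.5-fold, 57.2% of 2-fold and 84.9% of 4-fold changes. These shares apply to that setting only, and recovery with fewer changed entries was not tested. Lists and members were chosen with earlier results of these data known. Named were the 12 highest-ranked names in each direction without overlap, entries past the threshold with the block, the 5 most abundant, the leading entry of 14 chosen miRNAs and up to 3 candidates in each direction. Alternatives were other pseudocounts, filters, scalings, weights, entry sets, blocks and libraries left out, and, chosen after seeing the data, lists without miR-29 or miR-199. Intervals are 95% and floors cover counting error only.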

Additional observations from a re-analysis of the deposited data

Results flagged for a closer look

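IGF1 and AA libraries differed by a direct test in 3 of the named entries. Their media differed in more than IGF1 and amino acids, and these parts cannot be told apart. miR-1 had a log2 difference, IGF1 minus AA, of -0.90 (limma adjusted p = 0.0168), while IGF1 minus CTR was 0.06. miR-133a-2-5p had -1.12 against AA (adjusted p = 0.0310) and 0.78 against CTR. mir-128-2-p5 had -1.93 against AA (adjusted p = 0.0212) and -1.13 against CTR. In each of the 3 entries all IGF1 libraries lay below all AA libraries. Inferred depth was higher in AA, between 9766621 and 11214790 reads, than in IGF1, between 7241680 and 9534837 reads, and its part in these differences was not tested.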

How the results depend on the processing

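Of 46 named entries, 38 kept the sign of their difference between IGF1 and CTR under every alternative run, and 5 turned. The other 3 (miR-21, miR-146 and miR-22b) came to 0 under quantile normalization, which gives equal values to entries of equal rank. The leading entries and the candidates were named because their groups did not overlap, so leaving out a library could not turn their sign. For them the kept sign is no evidence of stability to a left-out library. With 1 library left out, the sign turned in let-7e (between -0.165 and 0.0893), miR-1 (between -0.0547 and 0.146), miR-206 (between -0.271 and 0.0057), miR-128-3p (between -0.213 and 0.0474) and miR-199-5p (between -0.118 and 0.0237), and with weights estimated per library in miR-199-5p (0.0359). For IGF1 against CTR, 0 entries passed in limma, against 2 with the replicate block, 5 with weights per library (miR-34, miR-133a-2-5p, mir-217-p3, mir-128-2-p5 and PC-3p-19263, each at adjusted p = 0.0483) and between 0 and 2 with 1 library left out. The 2 without CTR replicate 1 were miR-34 and miR-18a. Unadjusted, 61 entries had a p under 0.05, 94 with the block, 133 with weights, 148 without CTR replicate 1 and 38 without CTR replicate 2. The block over the 6 libraries alone gave 0 calls, with 87 at an unadjusted p under 0.05. For IGF1 against AA, 5 entries passed, against 10 with the block and between 1 and 13 with 1 library left out. For arm ratios, 0 pairs passed, against 1 with the block and between 0 and 10 with 1 library left out, the 10 without CTR replicate 1 and 2 without CTR replicate 3. The causes were not tested. Depth limits entries near 3 reads, between 2.63 and 3.62 normalized reads per library.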
